A study of Homo sapiens with 6 samples.

Results

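Open chromatin was compared between the parent line CCRF-CEM (T lymphoblasts of human leukaemia origin, long established in culture) exposed for 2 h to 100 nM camptothecin and the same cells given DMSO, the solvent. Both groups are wild-type for SLFN11 and were grown in the same serum-supplemented medium; each is represented by 1 ATAC-seq library. The series also holds the parent line at 4 h of camptothecin and an SLFN11-knockout line under the same 3 conditions, 6 libraries in all. The 2 libraries were chosen by their codes: the peak list coded CCRF_WT2 was taken as 2 h of camptothecin and the list coded CCRF_WT as DMSO, because these codes stand in the brackets of the sample titles. The lists are stored under other samples of the series. The CCRF_WT2 list sits under the DMSO sample and the CCRF_WT list under the 4 h sample, and none of the 6 lists sits under the sample whose title bears its code. If the records and not the codes are right, every direction below is inverted, and the pair compares DMSO with 4 h of camptothecin. Together the lists gave 24684 separate regions on chromosomes 1 to 22 and X, of 32037 in the union of all 6 lists.

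In ATAC-seq a transposase inserts sequencing adapters where DNA is not packed by nucleosomes, so promoters and enhancers in use appear as peaks. Camptothecin traps topoisomerase I on DNA after it has cut one strand, and replication forks that meet the trapped enzyme break or stall. SLFN11 is recruited to stalled forks, blocks their further progress and makes cells sensitive to drugs of this kind. Opening of chromatin under replication stress has been described as one of its activities, and that is the question this pair of libraries addresses in cells that have the protein. The files give positions in hg19 with no gene names, and the gene tables at hand follow another build, so genes, promoters and sequences of the peaks were not analysed here.

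The 2 h list was the larger by every measure of extent. Overlapping entries within a list were joined, and the 2 h list then held 23665 merged peaks against 14205 in the DMSO list, a log2 ratio of 0.74 (Wilson 95% interval 0.71 to 0.77). Its peaks covered 12.1 Mb and those of DMSO 5.69 Mb, 2.12 times as much. Peaks of 1 kb or more numbered 1645 at 2 h, 6.95% of the list, and 252 in DMSO, 1.77%. With 1 library per group no spread between replicates exists and no p-value was computed for the treatment. All intervals cover counting error only.

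The depth of both libraries has to be read from the peak values, since the lists hold no read totals. Fold and p of a peak together give the number of reads piled up at its summit and the local background. The lowest background level scales with the number of reads where lists are called with the same settings, and was 1.29 at 2 h and 1.22 in DMSO, a ratio of 1.06. By contrast, the median summit held 26 reads at 2 h and 17 in DMSO. These summit medians are taken over lists of unlike length. The median background at peaks also differed more than the lowest background, at 3.00 at 2 h and 2.24 in DMSO. How reads were extended and duplicates treated is not given, so the lowest background is an uncertain measure of depth. Depth, treatment, cell state and the quality of the single transposase reaction cannot be told apart as sources of these differences.

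Gained peaks were 2 h peaks that no DMSO peak touched. There were 10739 of them, 45.4% of the 2 h list (44.7 to 46.0%), and they held 3.49 of its 12.1 Mb. This count depends on the lengths of the lists. With the longer list cut to the length of the shorter, which forces gained and lost counts to lie close together, 3088 peaks (21.7%) were gained and 2846 (20.0%) lost. Over the full lists, gained peaks were smaller and lower than the 12926 peaks of the same list that were shared. Median width was 277 bp in gained and 637 bp in shared peaks, and median fold over local background, a value per peak that the authors' caller computed, was 4.93 and 8.49. The median summit held 15 reads in gained peaks and 45 in shared ones. A -log10 q of at least 10 was reached by 2656 gained peaks (24.7%) and by 84.3% of shared peaks. More than 1 summit was listed in 13.6% of gained and 41.1% of shared peaks.

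The share of gained peaks depended on the height and width a peak had at 2 h. Of peaks with a fold between 3 and 4, 86.3% were gained (84.9 to 87.6%). Below 3 it was 71.1% (66.4 to 75.4%), over 388 peaks, so the share was not highest in the lowest class. It was 66.5% between 5 and 6, 40.6% between 6 and 8, 14.1% between 8 and 10 and 4.78% between 10 and 15 (4.13 to 5.52%). By width, 88.1% of peaks of up to 170 bp were gained, 54.7% of those of 301 to 500 bp and 5.37% of those over 1 kb. Nearly all peaks of treated cells with a fold of at least 10 or a width over 1 kb were therefore also called in DMSO. Of peaks of 501 to 1000 bp, 16.8% were gained, so the gain was concentrated among small peaks but not confined to them. The DMSO list ended at a slightly stricter limit. Its lowest -log10 p was 4.75 against 4.42 at 2 h, and 464 gained peaks (4.32%) lay below it by their 2 h values. This count cannot show how many gained sites fell just short of a call in DMSO, since the lists hold no values below their limits.

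**Figure D1:**
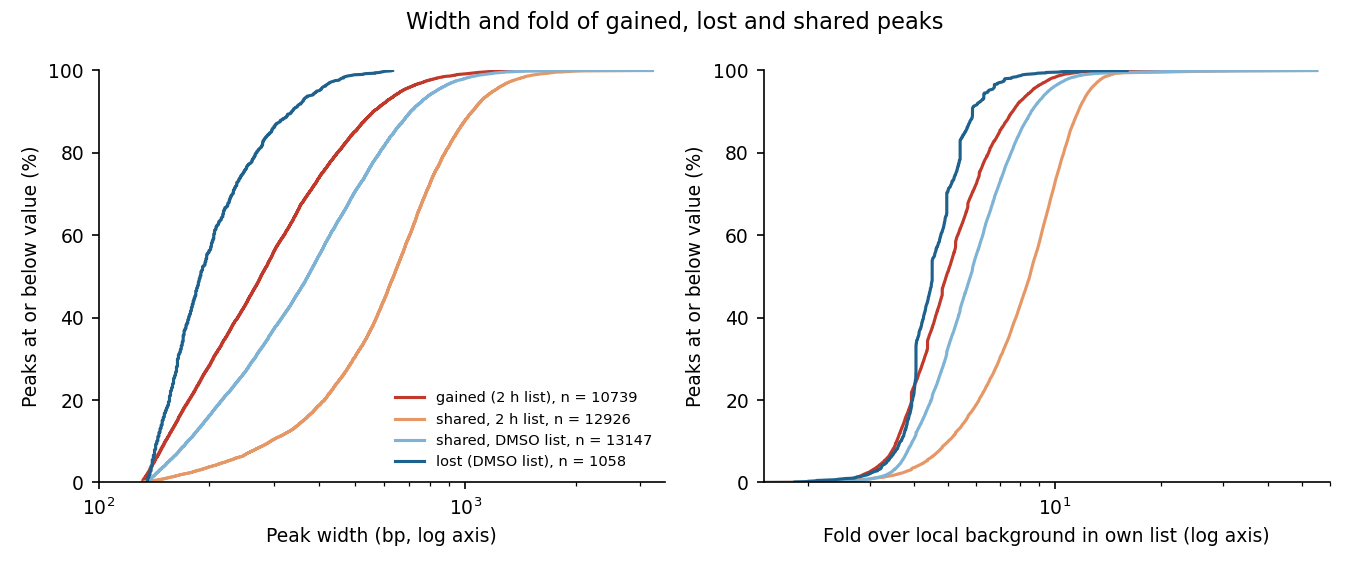
Cumulative share of peaks (percent) by width in bp (left) and by fold over local background in the peak's own list (right), both on log axes, for gained and shared peaks of the 2 h list and lost and shared peaks of the DMSO list. The lines of gained and lost peaks lie to the left of those of shared peaks, with median widths of 277 and 189 bp against 637 and 372 bp.

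Of any width, the highest gained fold was at a 138 bp peak, chr9:44070657-44070794 (30.2-fold, 125 reads), otherwise called only in knockout 4 h. Among gained peaks of at least 300 bp, the highest fold was at chr9:123883880-123884210, where 51 reads were piled up at 2 h (15.7-fold). The same place was called in all other lists but DMSO, at 12.6-fold in parent cells at 4 h and between 7.49 and 8.05-fold in the 3 knockout lists. The next was chr11:102245171-102245730, 560 bp wide and 14.5-fold at 2 h, with 10.2-fold at 4 h and no peak in the knockout DMSO list. At chr3:101280408-101280917 the fold was 14.1 at 2 h and 6.91 at 4 h. At chr14:75530492-75530909 the 2 parent treated lists were nearly equal, with 13.3-fold at 2 h and 12.9-fold at 4 h, while the knockout lists gave 4.85, 5.28 and 5.57-fold for DMSO, 2 h and 4 h. Last of the set, chr1:226891060-226891399 was higher at 4 h (15.2-fold, 590 bp) than at 2 h (13.3-fold, 340 bp). Each of these 5 sites of at least 300 bp was thus called at 4 h too, and in at least 2 knockout lists. They were picked for a high fold at 2 h and do not stand for gained peaks at large, of which 23.0% were called in no other list.

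The broadest gained peaks were of low fold. The widest spanned 2056 bp at chr14:21150633-21152688, with a fold of 4.27 at 2 h and 4.28 at 4 h, and with 852 bp called in knockout DMSO. Peaks of 1559 bp at chr15:93631122-93632680 (4.83-fold) and of 1512 bp at chr20:62283788-62285299 (4.00-fold) followed. The 4 h list covered 1542 and 1476 bp at these places. A 1450 bp peak at chr17:8125231-8126680 had 4.92-fold and 43 reads at its summit, and a 1445 bp peak at chr6:27833990-27835434 had 3.62-fold and 52 reads. At all 5 broad sites the knockout lists held narrower peaks or, in knockout DMSO at the chromosome 15 site, none. The sites were picked for their width at 2 h, so narrower peaks are likely in any list that took no part in the choice. Fold at the 5 sites lay between 3.62 and 4.92 at 2 h, below the gained median of 4.93. Reads at their summits numbered 26 to 52, above the gained median of 15, so the fold was low but the pileup was not.

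Lost peaks, called in DMSO and touched by no 2 h peak, numbered 1058, which is 7.45% of the DMSO list (7.03 to 7.89%). Of these, 315 (29.8%) reached a -log10 q of at least 5. With both lists cut at that limit before they were compared, 525 of 9965 DMSO peaks were lost (5.27%). With both cut at 15 reads at the summit, a limit chosen after seeing the data, 361 of 9284 were lost (3.89%). Lost peaks were low and narrow. Median width was 189 bp against 372 bp in the 13147 shared DMSO peaks, median fold 4.50 against 5.77, and the median summit held 11 reads. Only 38 lost peaks (3.59%) reached a -log10 q of 10, and 378 (35.7%) were no wider than 170 bp. Among DMSO peaks with a fold of 4 to 5, 15.1% were lost, and of those with a fold of 6 to 8, 1.86%.

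Lost peaks with a clear height and some width were few. Of any width, the highest folds were at narrow sites of 146, 139 and 206 bp. These were chrX:61815091-61815236 (16.0-fold, 79 reads), chr2:89853148-89853286 (12.1-fold, 88 reads) and chr20:29811929-29812134 (11.7-fold, 52 reads). The highest of at least 300 bp was at chr12:78319370-78319703, 9.45-fold with 20 reads in DMSO, and it was called again at 4 h (7.09-fold) and in all 3 knockout lists. At chr11:48932221-48932569 the DMSO fold was 8.60, and the only other list with a peak was 4 h (4.34-fold). The widest lost peak, 633 bp at chr12:130877226-130877858, had 7.65-fold in DMSO and was otherwise called only in knockout cells at 4 h (5.93-fold). At chr2:154465946-154466571 a 626 bp peak of 4.77-fold was called in DMSO alone, on a summit of 10 reads. The 602 bp peak at chr2:3319060-3319661 was called in both treated knockout lists, at 4.94 and 5.05-fold, and not in parent 4 h. The pattern of knockout 4 h alone was also that of chr12:132634042-132634397 (7.57-fold in DMSO) and chr20:29653043-29653631 (3.53-fold).

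The 4 lists that played no part in defining these classes gave a further readout. Of gained peaks, 60.8% were met by a peak of the parent 4 h list (59.9 to 61.7%), 47.1% by one of knockout 2 h, 39.8% by one of knockout DMSO and 37.9% by one of knockout 4 h. Shared peaks of the 2 h list were met in 92.6 to 95.6% of cases by each of these lists. Lost peaks were met by the parent 4 h list in 23.3% of cases (20.8 to 25.9%) and by the knockout lists in 33.5 to 35.3%. The parent 4 h list thus gave the highest share of the 4 for gained peaks and the lowest for lost peaks. List lengths differ, from 19167 to 21617 peaks among these 4, with the parent 4 h list the longest.

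Gained peaks divided broadly by how many of the 4 other lists held them. In 2465 (23.0%) no other list had a peak, and in 2023 (18.8%) all 4 did. The first group can be counted as seen in 1 library alone; the second lacked a call only in parent DMSO. The pattern of presence in parent 4 h and in no knockout list was found for 1566 gained peaks (14.6%, 13.9 to 15.3%), whose median width was 257 bp and median fold 4.69. The same pattern was found in 0.805% of shared peaks of the 2 h list and in 5.67% of lost peaks. The opposite pattern, at least 1 knockout list but not parent 4 h, was found for 1747 gained peaks (16.3%). It was found for 4.99% of shared 2 h peaks and 39.6% of lost peaks. Counted in another way, 6708 gained peaks (62.5%), which include those in all 4 lists, were met by at least 1 knockout list, and 4270 by the knockout DMSO list, in cells with neither SLFN11 nor drug.

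Broad gained peaks were the most widely held. Of the 1594 that spanned at least 500 bp, 94.8% were met in parent 4 h (93.6 to 95.8%), 71.5% in knockout DMSO and 80.9% in knockout 2 h, and 22 (1.38%) were in no other list. Of the 1918 gained peaks of 170 bp or less, 32.1% were met in parent 4 h and 882 (46.0%) in no other list. Where a gained peak was met in parent 4 h, its median fold was 5.50 at 2 h and 5.51 at 4 h, and the median widths were 344 and 356 bp. Where it was met in knockout DMSO, the values were 5.67-fold at 2 h and 4.80-fold there, and 365 and 258 bp.

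**Figure D2:**
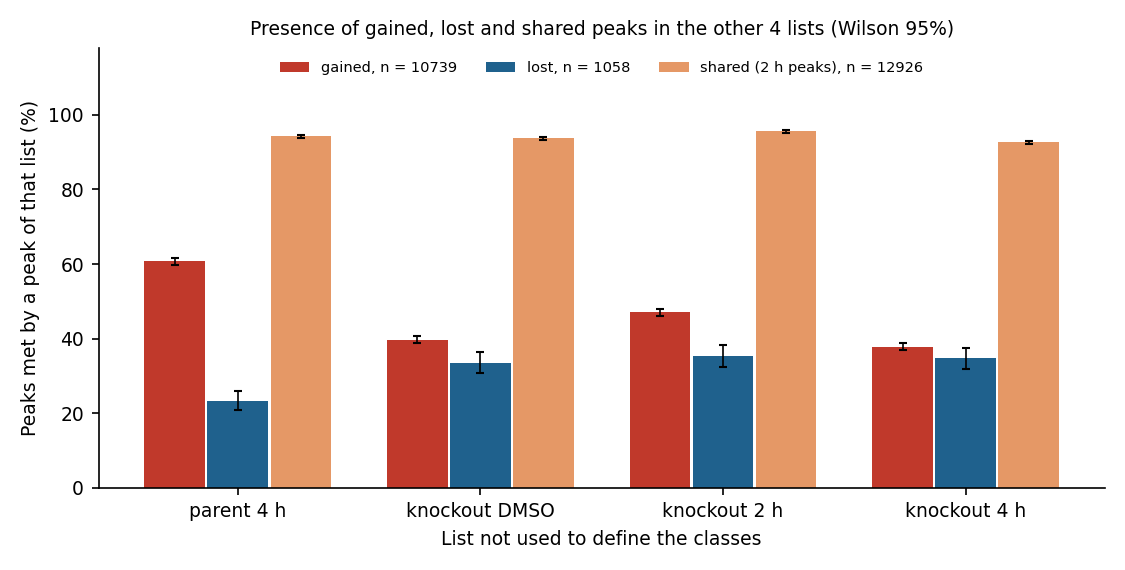
Percent of gained, lost and shared 2 h peaks met by a peak of each of the 4 lists not used to define the classes; bars start at 0 and error bars are Wilson 95% intervals of counting error. Gained peaks were met in 60.8% of cases in parent 4 h and in 37.9 to 47.1% in the knockout lists, while lost peaks were met least in parent 4 h.

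Shared regions were read for changes of width. The lists had 12887 shared regions, and in 12598 of them (97.8%) exactly 1 peak of each list met. In 90.2% of these the 2 h peak was the wider one (89.7 to 90.7%), and in 74.1% it enclosed the DMSO peak entirely. The median width was 632 bp at 2 h and 374 bp in DMSO, a median gain of 214 bp per region and a median log2 ratio of 0.62. Counted as widened were regions at least 1.5 times and 100 bp wider at 2 h, of which there were 6539 (51.9%). The reverse change, narrowing by the same limits, was found in 175 regions (1.39%).

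Over all 1-to-1 regions the left and the right edge each lay a median of 91 bp further out at 2 h. Within single widened regions a median of 73.1% of the added width lay on the larger side. By its definition this share cannot fall below 50%, and whether the split was more uneven than a random one was not tested. Of widened regions, 69.8% reached out by at least 50 bp on both sides, and 30.2% on 1 side only. Their median width went from 295 bp in DMSO to 661 bp at 2 h. Shares by DMSO width are a description only, since a broad peak must add more bp to count as widened and the classes were formed on the DMSO value. Where the DMSO peak measured 250 bp or less, 74.3% were widened, with a median gain of 239 bp. Between 501 and 1000 bp, 23.1% were widened, with a median gain of 183 bp. Over 1 kb, 3.03% were, with a median gain of 110 bp. In 252 further regions 1 broad 2 h peak joined several DMSO peaks, with a median of 485 bp of the 2 h peak lying outside them, and in 32 regions the reverse held.

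The region that widened most was at chr10:27443105-27445072. DMSO cells had a 275 bp peak there (6.60-fold, 27 reads) and treated cells a 1968 bp peak (7.63-fold, 71 reads), while parent 4 h covered 1373 bp and the knockout lists between 623 and 877 bp. At chr1:149857825-149860129, 647 bp in DMSO became 2305 bp at 2 h, with 23 and 102 reads at the summits and 2350 bp at 4 h. At chr1:11967859-11969833 the widths were 435 and 1975 bp. Next were chr12:860345-862270, with 427 and 1926 bp, and chr20:48806964-48808983, with 536 and 2020 bp. In each of these 5 regions the 3 knockout lists, DMSO included, lay between the 2 parent values in width. The regions were picked for the distance between those values, so such an order is likely for any list that took no part in the choice. The fold differed far less than the width there, with log2 ratios between 0.10 and 0.55.

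Narrowed regions were few, with a median width of 387 bp in DMSO and 205 bp at 2 h. The largest loss was at chr11:1016741-1017750, where 994 bp in DMSO became 186 bp at 2 h, although both summits held 17 reads and 4 h covered 801 bp. At chr18:77379905-77380698, a 794 bp peak was narrower at 2 h, fold went from 5.91 to 3.64, and no peak was called at 4 h. At chr5:79947257-79947996 the width was 740 bp in DMSO and 236 bp at 2 h, with 1577 reads at the DMSO summit and 1373 at 2 h. That site had 236 bp at 4 h as well and 734 or 735 bp in every knockout list. It was an unusual site, with 1296 to 1577 reads at the summit over the 6 lists. Medians at shared regions were 18 reads in DMSO and 45 at 2 h. The source of its difference in width was not tested.

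The fold over background at shared regions was higher at 2 h in 86.7% of the 12598 regions (86.1 to 87.2%). Medians were 8.53 at 2 h and 5.83 in DMSO, and the median log2 ratio was 0.46, with 90% of regions between -0.21 and 1.12. The 2 h fold was at least 1.5 times higher in 4786 regions (38.0%) and at least 1.5 times lower in 96 (0.762%). Fold and reads differed in the size of this shift, since the local background was higher at 2 h as well. Summit pileups had medians of 45 at 2 h and 18 in DMSO (median log2 ratio 1.14), and the backgrounds at the same summits 4.03 and 2.27. The caller's fold is a ratio made within each library, so these values describe a pair of libraries and are not a normalised measure of accessibility.

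The difference in fold was largest where DMSO signal was weak. Regions were sorted by DMSO fold into 4 groups of like size. In the group with the lowest DMSO fold the medians were 4.14 in DMSO and 6.46 at 2 h, with a median log2 ratio of 0.64, and 65.2% were widened. In the highest group they were 8.32 and 10.4, with a log2 ratio of 0.26, and 35.0% were widened. The log2 ratio of pileups varied less over the 4 groups, from 1.06 to 1.20. The groups were formed on the DMSO value itself, and how far the order follows from that sorting was not tested. Of widened regions the share with higher fold was 47.9%, against 38.0% of all 1-to-1 regions: 3135 of 6539 had a fold at least 1.5 times higher, and 490 (7.49%) had a lower fold.

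**Figure D3:**
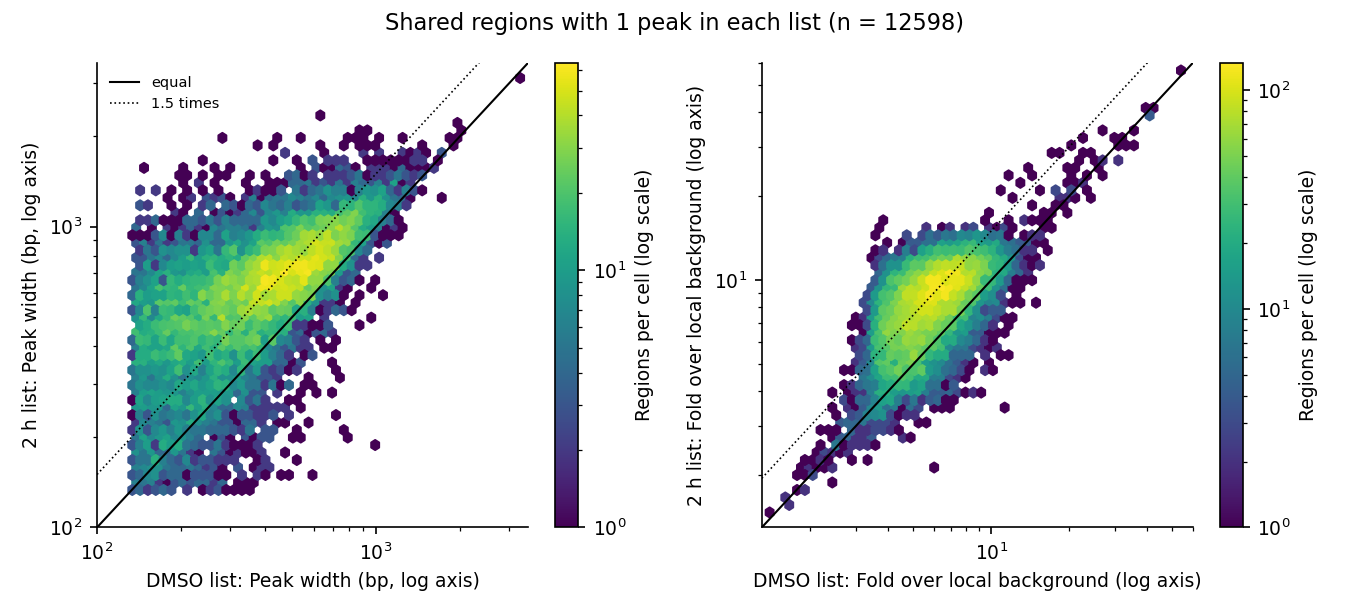
Width in bp (left) and fold over local background (right) of the 12598 regions with 1 peak in each list, DMSO list on the x axis and 2 h list on the y axis, all axes logarithmic, coloured by the number of regions per cell. Most regions lie above the line of equality, 90.2% in width and 86.7% in fold.

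Among regions with a fold of at least 5 in both lists, the largest difference was at chr7:74867158-74868026. Fold there was 5.45 in DMSO and 15.3 at 2 h, on summits of 15 and 75 reads (log2 ratio 1.49), with 18.4 at 4 h. The knockout lists gave 13.6, 12.8 and 9.43-fold for DMSO, 2 h and 4 h, so the parent DMSO library was the lowest of the 6. Regions named here were picked for the ratio of 2 h to DMSO fold, so the choice itself favours an extreme DMSO value. At chr19:19843581-19844257 the values were 5.40 and 14.5-fold, at chr1:115124082-115124504 they were 5.06 and 13.6-fold, and at chr17:53315561-53316198 they were 5.43 and 14.5-fold. Then came chr2:114384490-114385124, with 5.71 and 15.1-fold and widths of 247 and 635 bp. In the other direction, chr6:125388193-125388417 had 11.7-fold in DMSO and 5.24-fold at 2 h (log2 ratio -1.15), on 26 and 11 reads, and 4.87-fold at 4 h. At chr9:104332293-104332889 the fold was 10.8 in DMSO, 5.35 at 2 h and 5.25 at 4 h, against 7.48 to 8.32 in the knockout lists.

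Gained and lost peaks were found on all 23 chromosomes, at unequal shares. Gained shares by chromosome are led by chromosomes 22 and 17, at 54.4% and 54.1%. Lost shares were lowest on chromosome 19 (1.58%, 0.883 to 2.80%), chromosome 17 (2.39%) and chromosome 22 (2.61%), and highest on chromosome 21 (13.9%, 9.38 to 20.2%), chromosome 18 (12.5%) and chromosome 4 (11.0%). Widened regions made up 64.6% of shared regions on chromosome 15 (59.6 to 69.3%), 63.9% on chromosome 17 and 61.8% on chromosome 22, and 39.3% on chromosome 4 (35.7 to 43.1%). The log2 ratio of peak numbers was 1.08 on chromosome 22 (0.86 to 1.31), 1.07 on chromosome 17 and 0.45 on chromosome 4 (0.32 to 0.59). The median log2 ratio of fold at shared regions was 0.62, 0.57 and 0.32 on these chromosomes. Gain, widening and fold were thus all high on chromosomes 17 and 22 and low on chromosome 4. On chromosome 21 the gained share was 51.1% (45.2 to 56.9%) and the widened share 44.3% (36.1 to 52.8%), and both intervals include the values over all chromosomes. On chromosome 18 the gained share was 50.6% (45.8 to 55.4%) and the widened share 42.3% (35.6 to 49.3%).

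**Figure D4:**
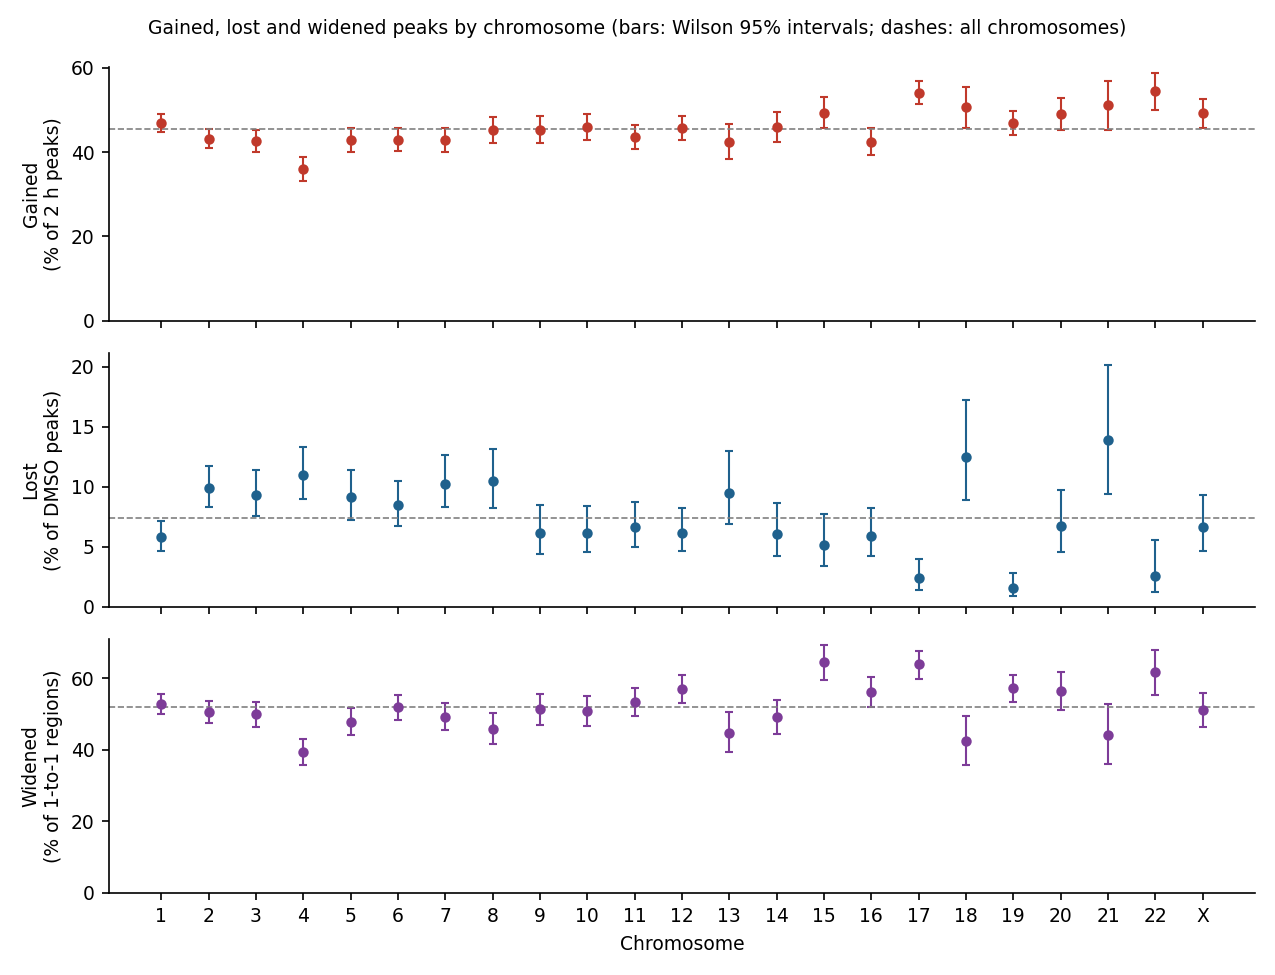
Percent of 2 h peaks gained (top), of DMSO peaks lost (middle) and of 1-to-1 shared regions widened (bottom) on each chromosome, with Wilson 95% intervals of counting error and a dashed line at the value over all chromosomes. Chromosomes 17 and 22 are high in the top and bottom panels and low in the middle one, and chromosome 4 shows the opposite.

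On a finer scale, most windows of 1 Mb held more peaks at 2 h, but not all. Of 2604 windows with a peak in either list, 2067 held more peaks at 2 h, 165 fewer and 372 equal numbers. Gained peaks occurred in 2238 windows and lost peaks in 788. In windows with at least 5 peaks at 2 h, a median of 44.4% were gained, and 80% of these 1733 windows lay between 20.0% and 66.7%. Windows with the most gained peaks, 27 each, lay on chromosome 19 from 1 to 2 Mb (51 peaks at 2 h, 24 in DMSO) and on chromosome 6 from 31 to 32 Mb (42 and 15). Gained peaks lay a median of 33028 bp from the nearest DMSO peak, and 5.50% were within 1 kb of one. For shared 2 h peaks the distance to a DMSO peak they did not meet was 41684 bp, with 4.02% within 1 kb.

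Some gained peaks formed long runs with no shared peak between them, so that a lost peak is the only kind of DMSO peak such a run can hold. The longest held 21 gained peaks over 1.49 Mb at chr22:22283364-23775963, with a median fold of 5.56 and a highest of 11.3. The DMSO list had 0 peaks in this stretch, where parent 4 h had 25 and the knockout lists 13, 15 and 7 for DMSO, 2 h and 4 h. In the stretches of equal length before and after it, DMSO had 17 and 15 peaks and 2 h had 24 and 31. The second run held 18 gained peaks over 0.550 Mb at chr17:27894081-28444222, with 0 peaks in DMSO, 16 at 4 h and 7 to 10 in the knockout lists. Its flanks held 4 and 1 DMSO peaks. The third held 16 over 0.283 Mb at chrX:130838297-131121578, again with 0 in DMSO, 15 at 4 h and 6 to 13 in the knockout lists. Its flanks held 0 and 3 DMSO peaks, and the flank before it was empty in all 6 lists. Each flank has the length of its run, so these counts cover stretches of unlike length. They do not rank the runs by how rich in DMSO peaks their surroundings are. In the 4 lists that the choice of runs did not use, each of these 3 stretches held 6 or more peaks. This was not so for every long run: at chr11:64107629-64511366, with 12 gained peaks, the knockout lists held 3, 3 and 1. Most runs were short: 3000 of 5635 were single peaks, and 299 held 5 or more.

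**Figure D5:**
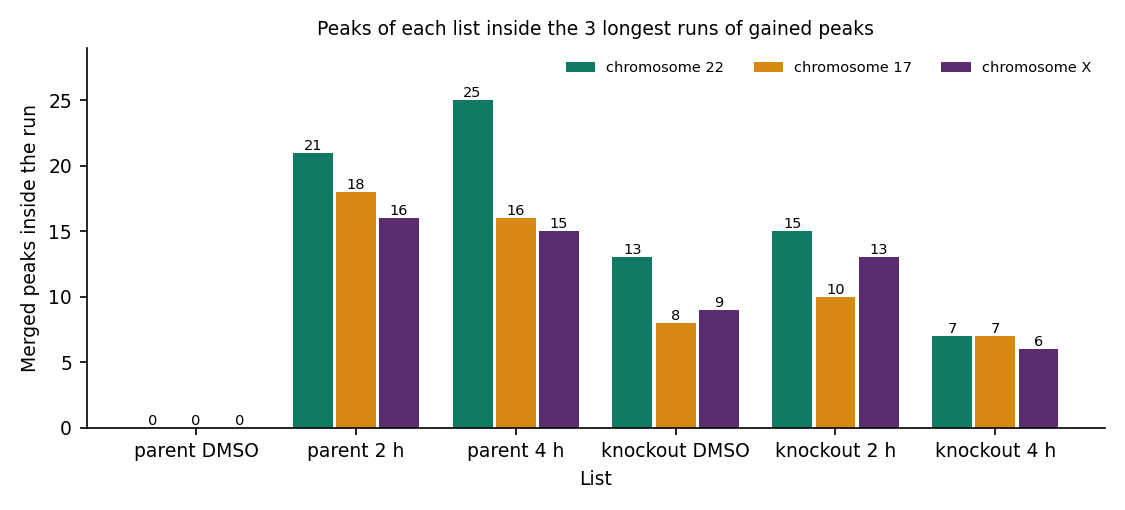
Number of merged peaks of each of the 6 lists inside the 3 longest runs of gained peaks, on chromosomes 22, 17 and X; each bar is 1 library and starts at 0. Parent DMSO is at 0 in each, parent 2 h and 4 h are at 15 to 25, and the knockout lists are at 6 to 15.

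The same contrast, 2 h of camptothecin against DMSO, can be set beside the knockout pair placed by the same codes. There 23.1% of treated peaks were gained and 16.5% of DMSO peaks lost, against 45.4% and 7.45% in parent cells. These shares depend on list lengths. Knockout lists held 20894 peaks at 2 h and 19289 in DMSO, and parent lists 23665 and 14205. The parent DMSO list was the shortest of the 6. Widened and narrowed regions made up 14.9% and 8.18% of the knockout's 15651 shared regions, against 51.9% and 1.39%. The median log2 ratios in knockout cells were 0.07 for width and 0.04 for fold, where parent cells had 0.62 and 0.46. At each pair's own shared regions the median fold was 5.83 in parent DMSO and 6.21 in knockout DMSO, and 8.53 and 6.46 at 2 h. Whether the knockout is 1 clone is not stated in the labels, each value is 1 library, and whether the genotypes differ was not tested.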

How the data were processed

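Each library came from 50000 cells, per the labels' protocols. Tools listed in the submitters' processing notes are MACS2 2.1.2, Picard 2.9.2, BWA 0.7.17, SAMtools 1.8, Trimmomatic 0.39 and Trim Galore 0.6.2, with hg19 as build. How reads were shifted or extended and duplicates treated is not given in the sources used here. The authors deposited 1 peak list per library that gives each entry a score, its -log10 p, its -log10 q and a fold enrichment, the ratio to local background; all lists end at a -log10 q of 2.00. Entries on chromosomes 1 to 22 and X were used, 33765 at 2 h and 18273 in DMSO, and those that overlapped within a list were merged, with the highest fold kept. Peaks of different lists were called shared at an overlap of at least 1 bp. Summit pileup and background were solved from fold and p under a Poisson model, and at least 99.95% of pileups came out within 0.02 of a whole number. Shares carry Wilson 95% intervals. PCR reads are not independent molecules and neighbouring peaks are not independent, so intervals cover counting error only. Computation used Python 3.11.15, numpy 2.4.6, pandas 2.3.3 and scipy 1.17.1, and the classification was tested on simulated lists. Named peaks are the highest and the widest gained and lost peaks and the shared regions most changed in width or fold; the text gives some or all of each set. The comparison, limits and rules were chosen with earlier results of these data known. Tests of promoters and of sequence content were not run, since no genome or annotation of hg19 was used here.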

Additional observations from a re-analysis of the deposited data

How the results depend on the processing

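Limits: 1 library per condition, placement by library code, and small peaks on few reads. Of 56 values computed under alternatives, 14 belong to settings added after the data were seen. Placement by sample record compares other lists and gave 2974 gained and 4948 lost peaks, 1383 widened and 1734 narrowed regions, and log2 ratios of -0.13 for peak numbers, -0.0017 for width and 0.055 for fold. Peak numbers thus went the opposite way, and the interval of the width ratio, -0.0071 to 0.0023, includes 0. With lists of equal length, which fixes the log2 ratio of peak numbers at 0, 3088 peaks were gained and 2846 lost, 48 regions narrowed, and the median log2 ratios were 0.645 for width and 0.53 for fold. Equal lengths also force gained and lost counts close together, so this setting does not bear on their excess. Widened regions numbered 5853 under it. At a -log10 q of at least 5, 525 peaks were lost and 91 regions narrowed, with log2 ratios of 0.92 for peak numbers, 0.56 for width and 0.42 for fold. With a summit pileup of at least 15 (added), 361 peaks were lost, 4135 regions widened and 56 narrowed, with ratios of 0.93, 0.56 and 0.42. Unmerged entries gave a peak number ratio of 0.89, a common lowest -log10 p (added) 0.71, and leaving out peaks of 170 bp or less a width ratio of 0.59. A width change of at least 2 times was met by 3480 wider and 57 narrower regions. The cause of these shifts was not tested. No paired analysis was possible because each group has 1 library. The promoter alternatives were not run.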

Other observations

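Summits at shared regions were compared as well. In the 12598 regions with 1 peak in each list, the highest summits lay within 50 bp of each other in 52.8% of cases. The 2 h peak listed more summits than the DMSO peak in 3764 regions (29.9%) and fewer in 1264 (10.0%).

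Entries on the mitochondrial genome, left out of all comparisons, numbered 48 in both the 2 h and the DMSO list, and 44 to 49 in the other lists.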
